A study of Mus musculus with 8 samples.

Results

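Whole-lung RNA of 4 wild-type mice was ranked by brightness on 4 of the 8 arrays of the series, those whose labels give the genotype as wildtype. The mice were untreated C57BL/6 males, 8 to 10 weeks old by the labels, and none carried the transgene (Scgb3a2 driven by the human SP-C promoter) of the mice on the other 4 arrays, which are not described here. Each mouse had an Agilent whole mouse genome array on a slide of its own, with its RNA labeled with Cy5 and, in Cy3, a reference pool made of equal amounts of RNA from each sample, transgenic mice included. No RNA of different mice was mixed in the Cy5 channel, and the labels name each sample a separate mouse. Lungs 1 and 3 were scanned on one day and lungs 2 and 4 on another, as the array headers give it. There is a single group, so no difference between groups was tested, and the values below describe these 4 lungs.

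The lung is lined by 2 epithelia. Airways carry club cells, which secrete secretoglobins and hold detoxifying enzymes, and ciliated cells, which move mucus, while alveoli carry flat type I cells for gas exchange and cuboidal type II cells, which make surfactant. Around them lie a dense capillary bed, fibroblasts, smooth muscle and resident macrophages. A whole-lung extract mixes the RNA of all these cells, and fewer cells of a type and less RNA per cell cannot be told apart in it.

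The measure was the net signal, the median Cy5 brightness of a spot less its median local background, averaged over the spots of a probe that carried no outlier flag. Each probe was then placed on a percentile scale within its array, on which 100 is the brightest. A percentile orders probes and not transcript copies, since probes bind with different strength, so an order of genes below is an order of their brightest probes. Of 41174 probes 444 had no value because all their spots were flagged. Of the rest the scanner software called 27424 (67.3%) well above background on 4 of 4 arrays and 5373 (13.2%) on none. By gene, 16424 had a probe well above background on 4 arrays and 1763 had none on any array. The median spot signal was 217.5 to 263 over a median background of 55.5 to 59, saturation was not reached anywhere, and flags had removed 4.27% to 7.40% of the spots. The flags fell unevenly, on 24% to 36% of the 100 brightest spots of an array and on 1.52% to 1.91% of those dimmer than the median. The brightest genes therefore often had fewer than 4 values, and where their flagged spots are quoted this is said.

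Brightness was concentrated in few probes. The 100 brightest held 19.8%, 19.4%, 21.1% and 19.3% of all net signal in lungs 1 to 4, and the 10 brightest 3.73% to 5.36%. Among the 100 brightest genes of each lung 36 were common to all 4 lungs, and 64 once flagged spots were kept. The rank order of probes correlated between lungs with a Spearman coefficient of 0.966 (lungs 1 and 2) to 0.984 (lungs 2 and 4), over probes that are not independent of each other.

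Secretory products of airway and alveolus stood near the top of the order in every lung. Scgb1a1, the club cell secretoglobin, had a net signal of 197374, 210978 and 162197 in lungs 1, 3 and 4 and of 179599 on the flagged spot of lung 2. Sftpc, the surfactant protein made by type II cells, read 164757 in lung 2 and 179561, 190343 and 160263 on the flagged spots of lungs 1, 3 and 4. Raw signals are not comparable between arrays, and within the arrays, flagged spots kept, Scgb1a1 ranked 8, 11, 10 and 8 and Sftpc 11, 15, 13 and 9 in lungs 1 to 4. Cbr2, a carbonyl reductase abundant in lung, read 166167 and 146554 in lungs 3 and 4, and 173266 and 160886 on the flagged spots of lungs 1 and 2. Scgb3a1, another airway secretoglobin, read 82107, 94614.5 and 67620 in lungs 1, 2 and 4. Scgb3a2, the secretoglobin that the transgenic mice of the series over-express, was already at the 99.6th percentile in wild-type lung, with 36520, 26482, 52490 and 27387.5 in lungs 1 to 4. Lung 3 was the highest and lungs 2 and 4 the lowest for Scgb3a2.

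**Figure D1:**
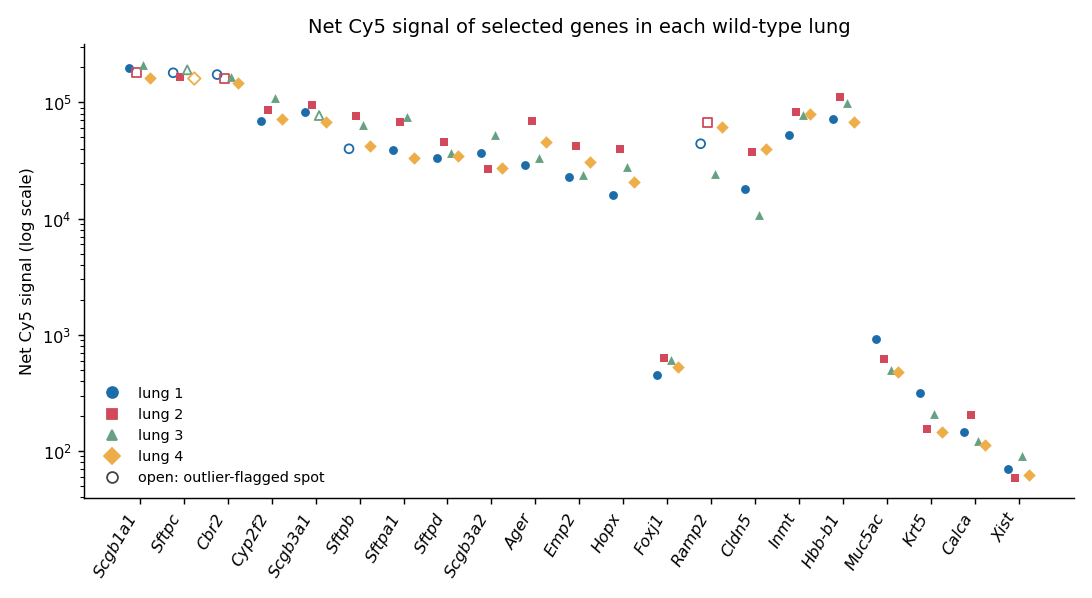
Net Cy5 signal (log scale) of selected genes in each of the 4 wild-type lungs, with filled symbols for unflagged spots and open symbols for outlier-flagged spots. The readings run from 210978 for Scgb1a1 in lung 3 down to 59 for Xist in lung 2, with the goblet, basal and neuroendocrine markers Muc5ac, Krt5 and Calca near the bottom.

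The 30 brightest genes with values in all 4 lungs included many of translation and the cytoskeleton. They held the 28S ribosomal RNA entry (104680, 152810, 241372 and 129194), 9 ribosomal protein genes, the elongation factor Eef1a1, and the cytoskeletal genes Actb, Myl6 and Cfl1. The brightest of the ribosomal protein genes was Rpl41, with 84766, 116239, 82916 and 96567. Actb, cytoplasmic actin, read 85430, 112122, 98108 and 104938, a range of 1.19-fold after scaling. Blood and iron handling were present through the globins Hbb-b1 and Hba-a1 and the ferritin chains Fth1 and Ftl1. Hbb-b1, adult beta globin, read 72023.5, 111861, 99458 and 67476.5, and was lowest in lung 4, as was Hba-a1 (60557, 87931.5, 70807 and 51233).

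Genes by which lung is known made up the rest of the named part of that list. Cyp2f2, the club cell cytochrome P450, read 68694, 85121, 109568 and 71891, and was highest in lung 3. Mgp, an inhibitor of calcification made by vessel wall and cartilage cells, read 71190, 95714, 95770.5 and 68505.5. Inmt, a methyltransferase of lung fibroblasts, read 52276, 83206.5, 77843 and 78724.5, and was lowest in lung 1. Wfdc2, a secreted protease inhibitor of airway epithelium, read 64695, 73395, 77757.5 and 56096. Selenbp1, a selenium-binding protein, read 56687.5, 60912, 58594 and 55915.5, close together before scaling and 0.56 apart on the log2 scale after it.

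Probes of one gene differed widely in brightness for some of the 30. For Rps24 the dimmest of 3 probes was at the 42.6th percentile, and for Syn1, a synaptic vesicle protein, the other probe was at the 83.2nd. For H2-Q10, a class I-like histocompatibility gene, the dimmest of 5 was at the 23.2nd, while a second probe was at the 99.5th with flagged spots kept. That probe read 29069.5, 54805.5, 20740 and 42790 in lungs 1 to 4, beside 49849, 94337.5, 43478 and 77073 for the first. Syn1 was also the gene of this list with the widest range, from 36459.5 in lung 3 to 101910 in lung 2. Above the list lay probes that had lost spots to flags. With flagged spots kept the 2 brightest were probes of Rn18s, 18S ribosomal RNA, with all their spots flagged. Lars2, mitochondrial leucyl-tRNA synthetase, came next on its only probe, so no other probe could be compared. It read 229794 and 309897 in lungs 1 and 3, and 283138 and 250878 on the flagged spots of lungs 2 and 4. Tor1aip2 and Ptprz1 also lay there, while their dimmest probes were at the 24.3rd and 9.83rd percentile.

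Markers of many of the lung's own cell types lay high. The club and secretory cell list had a median percentile of 99.6 over 11 genes, the type I list 98.5 over 11, the type II list 98.2 over 12, the endothelial list 97.6 over 19, the smooth muscle list 96.6 over 9, the fibroblast list 94.8 over 15 and the ciliated list 92.3 over 13. Lower medians were those of the pericyte list, 79.0 over 8 genes, the lymphatic endothelial list, 76.2 over 7, and the mesothelial list, 73.3 over 7. The median over all 21101 genes with a value was 64.2, and 85.2% of them passed the background call wherever they had a value. Every member with a value passed this in the club, type I, type II, endothelial, smooth muscle and ciliated lists. The labelled tissue thus carried the defining markers of airway, alveolus and vessel.

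Within the alveolar lists the surfactant genes led. Sftpa1 read 39023.5, 67186, 74563.5 and 33026, Sftpd 33525.5, 45315.5, 36949 and 34314, and Sftpb 76103, 63755 and 42314 in lungs 2 to 4. After scaling to a common distribution Sftpa1 was highest in lung 3 and lowest in lung 4 (log2 signals of 15.62, 15.61, 16.16 and 15.04), whereas Sftpd ranged by 0.33. Etv5, an ETS transcription factor of type II cells, was the dimmest of that list at the 76.8th percentile. Of type I genes Ager, the receptor for advanced glycation end products, read 29177.5, 68688, 33077 and 45431, and was highest in lung 2. Emp2, a membrane protein of type I cells, read 22874, 42208, 23805 and 30898.5. Rtkn2 was the dimmest type I gene at the 78.6th percentile. Scd1, Cldn18 and Eln, elastin, had no value on any array because all their spots were flagged.

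Ciliated and rare airway cells stood lower. Foxj1, the master regulator of motile cilia, read 447.5, 632.5, 611 and 528.5 and was at the 73.0th percentile, while the axonemal gene Tppp3 was at the 99.3rd. The goblet list had a median percentile of 52.5, the basal list 63.0 and the neuroendocrine list 45.6. Muc5b, the mucin of healthy airways, was at the 92.1st percentile and Muc5ac, the mucin of goblet cell metaplasia, at the 74.6th. Muc5ac was brighter in lung 1 (log2 signal 9.99 after scaling) than in the other 3 (8.98 to 9.06). Its range was 2.01-fold among the lungs and 1.92-fold for the reference pool on the same arrays. Krt5, the keratin of basal cells, was at the 54.9th percentile, Trp63, their p63 factor, was well above background on some arrays only, and Calca, the neuropeptide gene of neuroendocrine cells, was at the 48.9th. Foxa3 of the goblet list and Scg2 of the neuroendocrine list did not rise well above background in any lung.

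**Figure D2:**
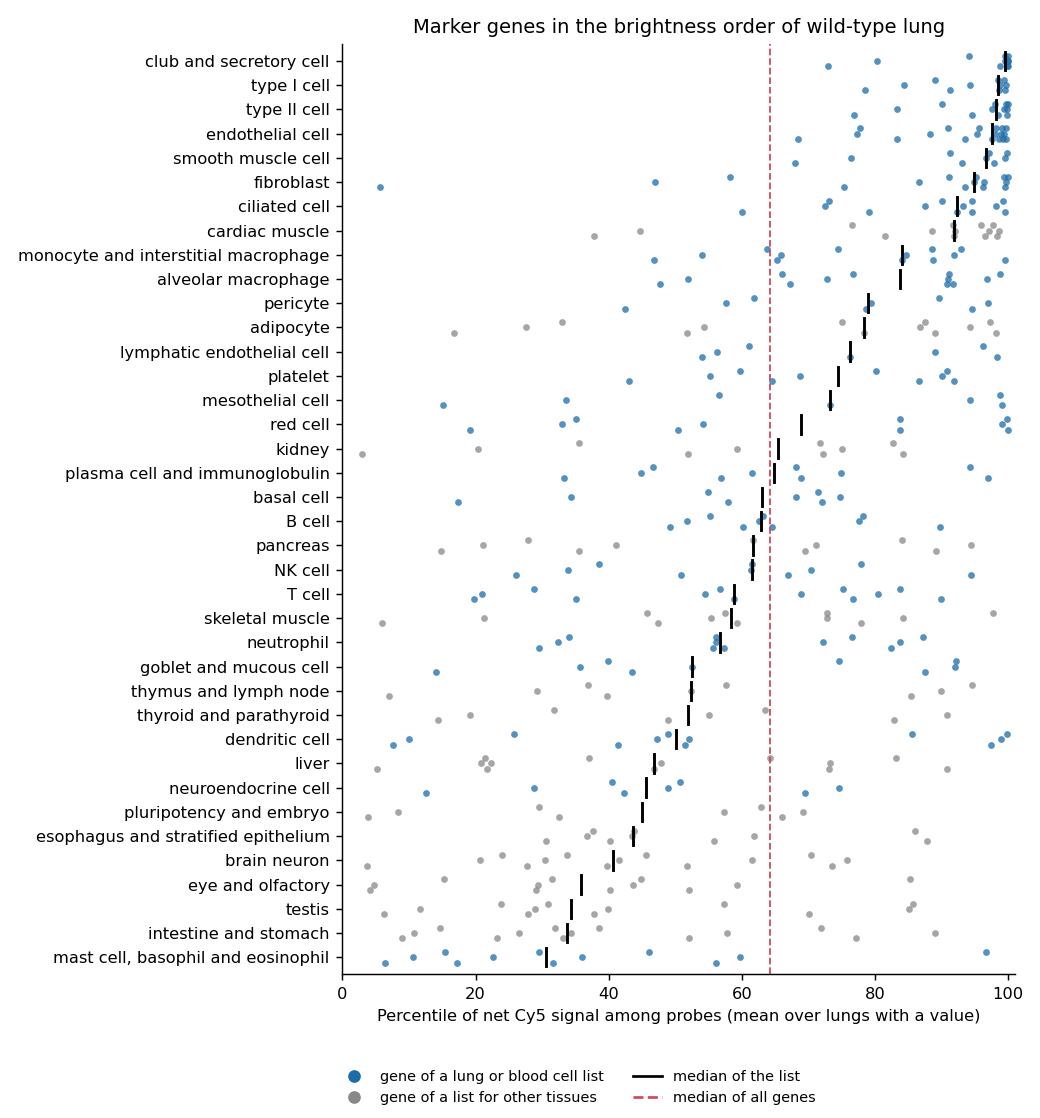
Mean percentile of net Cy5 signal of each gene of the marker lists (blue for cells of lung and blood, gray for other tissues), with a bar at the median of each list and a dashed line at the median of all genes, 64.2. The club, type I, type II and endothelial medians lie above 97, and the lists of other tissues spread over the whole scale.

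In the mesenchyme and vessels Ramp2, a co-receptor for adrenomedullin, was the brightest endothelial gene (99.7th percentile) and Edn1, endothelin, the dimmest (68.4th). Acta2 and Tagln, contractile genes of smooth muscle, were at the 99.5th and 99.9th percentile. Col3a1 and Mfap4, matrix genes of fibroblasts, were at the 99.4th and 99.6th. Dcn, decorin, was the exception, at the 5.69th percentile and not well above background in any lung. It rested on 1 of its 2 probes, the other having no unflagged spot, and the probe's own binding and the RNA level cannot be told apart. Of mesothelial genes Msln lay at the 94.3rd percentile and Wt1, their transcription factor, at the 15.2nd.

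Immune cells gave middle ranks. The medians were 84.1 for monocytes and interstitial macrophages, 83.8 for alveolar macrophages, 62.9 for B cells, 61.5 for NK cells, 58.8 for T cells, 56.7 for neutrophils, 50.2 for dendritic cells and 30.6 for mast cells, basophils and eosinophils. Marco, a scavenger receptor of alveolar macrophages, was at the 90.8th percentile and Cd74, the invariant chain, at the 99.9th. The list of mast cells, basophils and eosinophils was the only marker list with as many as 3 of 12 genes at background in all lungs, namely Cpa3, Epx and Il5ra. In the dendritic list Ccl22 and Siglech, the marker of plasmacytoid dendritic cells, were not well above background either.

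Genes of other organs were less bright but rarely at background. Over the 14 lists of other tissues, 133 of 160 genes (83.1%) passed the background call wherever they had a value and 13 (8.13%) nowhere, close to the 85.2% and 8.36% of all genes, and their median percentile was 51.9. Of the genes on the lists of lung and blood cells 94.6% passed everywhere and 3.09% nowhere. The call was thus passed more often by these, but also by most genes of other tissues. Prm1, a sperm protamine, was at the 85.7th percentile and Gcm2, the parathyroid factor, at the 90.8th. Gast, gastrin, was at the 89.0th over the 3 lungs with a value. At the low end were Tph2, the neuronal tryptophan hydroxylase, at the 3.68th and Cps1, a liver urea cycle enzyme, at the 5.26th percentile. Alb, albumin, was at the 21.8th and above background on some arrays only.

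One list of another organ was nearly as bright as the ciliated list of the lung. Cardiac muscle genes had a median percentile of 91.9 over 14 genes, and 9 of them lay above the 90th percentile. In mice cardiac muscle extends from the heart along the pulmonary veins. The atrial light chains Myl7 (1 unflagged spot) and Myl4 were at the 98.6th and 98.4th percentile and the ventricular light chain Myl2 at the 44.7th. Tnnt2, cardiac troponin T, read 3691.5, 12046.5, 5053 and 6816, and was highest in lung 2. Myl2 read 158, 134, 95 and 75, highest in lung 1, with a range of 1.89-fold after scaling. How much of this signal came from pulmonary veins and how much from heart tissue left on the lung was not tested.

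Genes linked to sex gave no check of the labels, since the levels of different probes cannot be compared. The Y-linked Ddx3y read 349, 656, 506 and 368 in lungs 1 to 4. Xist, the RNA of the inactive X chromosome of females, read 59 to 90.5, and both passed the background call on every array. Of the Y-linked genes Uty and Kdm5d lay at the 55.6th and 51.1st percentile.

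Housekeeping, ribosomal and metabolic lists also lay high. The ribosomal protein list had a median percentile of 99.7 over 17 genes and the housekeeping list 95.8 over 14. The respiratory chain list had 98.3 over 16 genes, and the cytochrome P450 and xenobiotic list 97.4 over 19. Cell cycle genes had a median of 52.3, with Cdk1 and Aurkb, mitotic kinases, at background in every lung. The lung epithelial transcription factors had a median of 88.2 over 15 genes, with Nkx2-1, the master factor of lung epithelium, at the 89.5th percentile.

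To describe how the 4 lungs differed, the arrays were brought to a common distribution by quantile scaling and net signals below 27.1 were set to that floor. The standard deviation (SD) of log2 signal over the 4 lungs was then taken for 29661 probes with values in all lungs and well above background in at least 2. Its median was 0.31. For the Cy3 pool the median SD was 0.22. The methods describe 1 kind of pool for all arrays, but whether a single preparation served both scan days is not given in the sources used here, so the pool's spread may hold a difference between preparations as well as between arrays. A range of over 2-fold was found for 6870 probes (23.2%) and of over 4-fold for 287. Of the 6520 among them with pool values 30.4% had a pool range over 2-fold as well, against 10.9% of all probes. When each lung was set against the pool of its own array, as the log2 ratio of Cy5 to Cy3, 704 probes had a range of over 2-fold. This ratio was taken after another background correction (normexp, with an offset of 50) and a loess fit within each array. That correction without the ratio gave 3092 probes, so the 704 do not show the effect of the pool alone. In 245 probes spotted 10 times on each array the median SD among spots of 1 array was 0.21 and that among lungs 0.27, over the 201 of them with enough unflagged spots. The first is a spread of single spots before scaling and the second a spread of averages over spots after it. The 2 values are therefore not on the same footing, and the part of spot noise in the spread among lungs cannot be read from them.

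**Figure D3:**
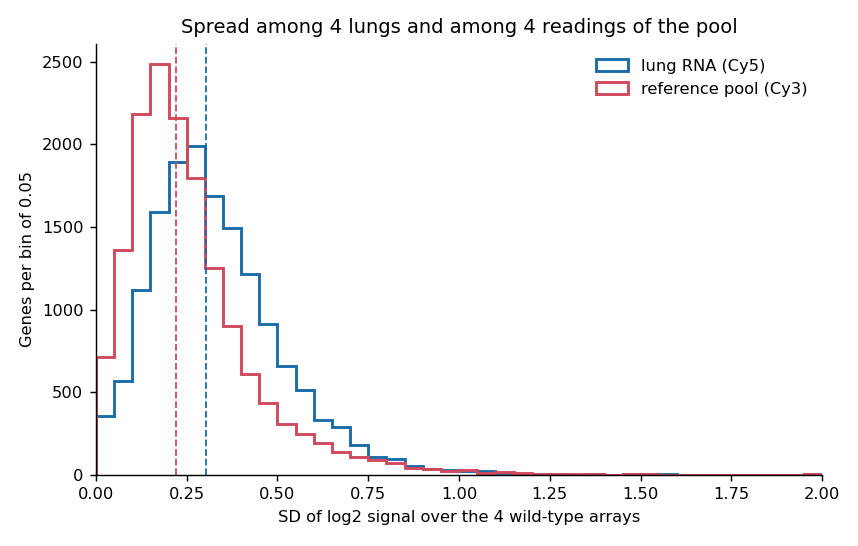
SD of log2 signal over the 4 wild-type arrays for 15213 genes with values in both channels, for lung RNA (blue, Cy5) and the reference pool (red, Cy3), with dashed lines at the medians of 0.30 and 0.22. The lung curve lies to the right of the pool curve, and both have a tail above 0.75.

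The spread was not shared evenly among lungs. Lung 1 lay farthest from the median of the 4 in 3254 of the 6870 probes with over 2-fold range, lungs 2 and 3 in 1502 and 1505, and lung 4 in 609. Of the pairs scanned on the same day, lungs 2 and 4 differed by over 2-fold in 518 probes and lungs 1 and 3 in 2206. The 4 pairs across days did in 3812 (lungs 1 and 2), 2255 (1 and 4), 1862 (2 and 3) and 1538 (3 and 4), so the pairs of one day were not always the closer ones. Both lungs of a scan day lay above both of the other day in 44.9% of all probes and in 54.1% of those with over 2-fold range. By gene, both lungs of the second day were higher in 30.7% and lower in 15.4% of 15981 genes, so the second day was more often the higher one over all genes. The part of scan day, slide and animal in this cannot be told apart with 2 lungs a day.

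The genes of the largest SD fell into those that moved alike in both channels and those that did not. Tmem165, a Golgi membrane protein, had the largest SD of all (2.82), with net signals of 4974, 88308, 1190 and 57340.5. Its pool readings on the same arrays were 12.90, 15.44, 10.53 and 15.49 on the log2 scale, beside 12.57, 16.14, 10.29 and 15.95 for the lungs. The other Tmem165 probe read 10.51, 10.68 and 10.45 in lungs 1, 3 and 4 and did not follow. Iqcd, Gpd2, Csn3 and Fmn2 showed the same picture, with an SD of 1.57 to 2.22 among lungs and 0.09 to 0.31 for the ratio to the pool. That ratio was taken with the offset of 50. Gpd2, mitochondrial glycerol-3-phosphate dehydrogenase, read 12.99, 9.76, 9.78 and 10.07 for the lungs and 12.87, 9.76, 9.92 and 10.25 for the pool, and its second probe ranged by 0.74. These probes thus varied from array to array in lung and pool together.

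**Figure D4:**
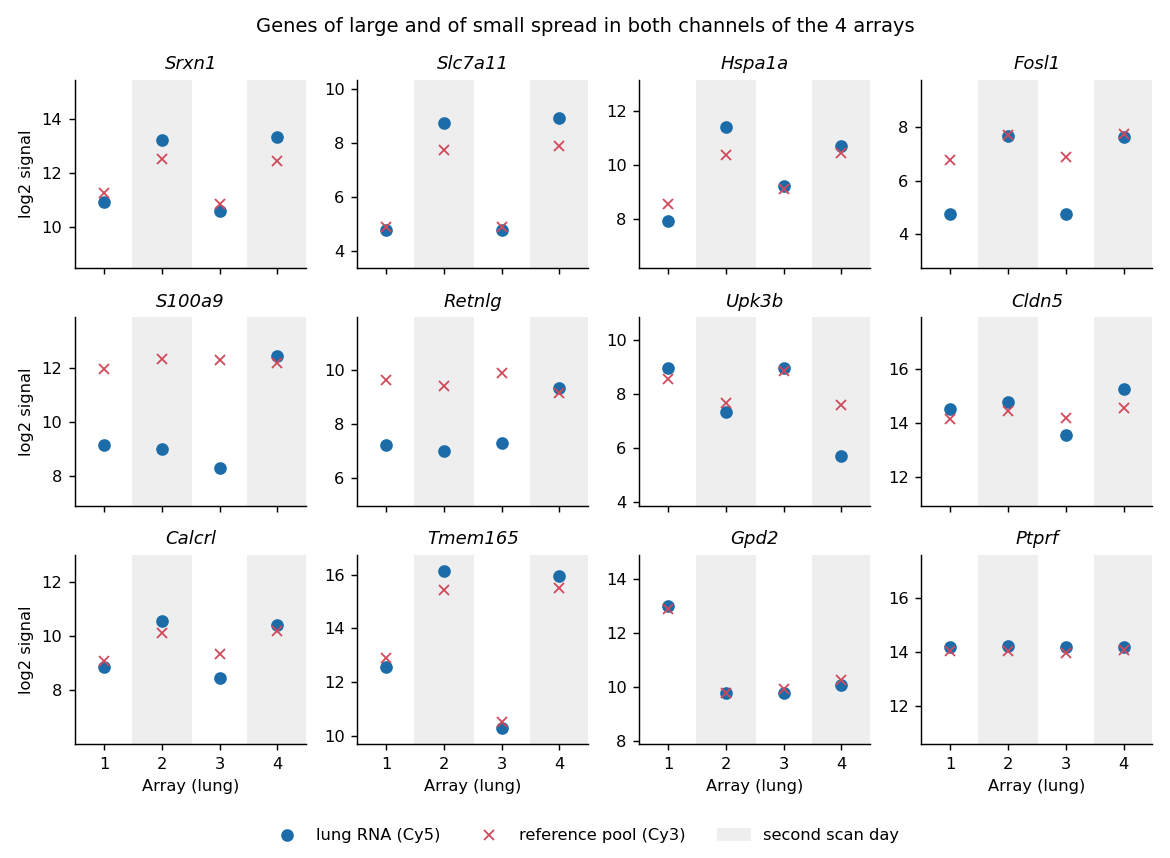
log2 signal of 12 genes on each wild-type array for lung RNA (blue circles) and the reference pool (red crosses), with the arrays of the second scan day shaded; each panel spans 7 log2 units. Tmem165 and Gpd2 move alike in both channels, Srxn1, Slc7a11 and Hspa1a move further in the lungs than in the pool, S100a9 moves in lung 4 alone, and Ptprf stays level in both.

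Among the genes of large SD, Srxn1, Slc7a11 and Hspa1a were higher in lungs 2 and 4 on more than 1 probe. Srxn1, sulfiredoxin, read 10.94, 13.23, 10.58 and 13.35 on the log2 scale in lungs 1 to 4, and a second Srxn1 probe 5.25, 9.88, 6.25 and 9.69. Slc7a11, the cystine transporter, was at the floor in lungs 1 and 3 and at 8.74 and 8.91 in lungs 2 and 4, and its other 3 probes were likewise higher in lungs 2 and 4. Lungs 2 and 4 thus did not overlap with lungs 1 and 3 for either gene, which were named for their large SD, and 44.9% of all probes were split by scan day in this way. The pool followed by less, with 11.25, 12.51, 10.85 and 12.44 for Srxn1 and 7.75 and 7.87 against its floor for Slc7a11. The pool thus differed between scan days for these genes, and the part of this in the lung values was not tested.

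The whole list of targets of NRF2, the factor that answers oxidative stress, was drawn up after these values were seen and is therefore a description only. Of its 12 members with a spread value 10 were higher in both lungs of the second day, beside 30.7% of all genes, and none lower in both. A range of over 2-fold was found for 8, beside 21.7% of all genes. Their mean deviation was -0.73, 0.54, -0.51 and 0.70 in lungs 1 to 4 and, in the pool, -0.37, 0.28, -0.40 and 0.49. Osgin1, an oxidative stress growth inhibitor, read 2261.5, 6680, 2358.5 and 6598, and Gclm, the modifier subunit of glutamate-cysteine ligase, 665, 1976, 934 and 2107.5. Hmox1, heme oxygenase, had values in lungs 1 and 3 only, of 1472 and 2295.5. The spots it lost to the flag for uneven brightness in lungs 2 and 4 read 32856.5 and 28404.5, which with flagged spots kept gave a range of 16.9-fold. Tkt and Gstm1, also known targets, had an SD of 0.10 and 0.15 and stayed level.

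Heat shock genes were highest in lung 2. All 5 members with a spread value had their highest value there, as did 36.3% of all genes. In 4 of them lung 4 was above lungs 1 and 3 too, while 30.7% of all genes were higher in both lungs of the second day. With flagged spots kept 11 of 12 were highest in lung 2, and 10 of 12 were higher in both lungs of the second day. Hspa1a, the inducible HSP70, read 234.5, 3290, 593 and 1660, and its second probe 7.41, 10.11, 7.35 and 9.56 on the log2 scale. Its sequence is nearly the same as that of Hspa1b, so either probe may read both. Hspb1, the small heat shock protein HSP27, read 17452, 81948.5, 24484 and 56064, and Hspe1, the mitochondrial co-chaperonin, 1075, 7523, 2552.5 and 3928. Hsp90b1, an endoplasmic reticulum chaperone, ranged less, with an SD of 0.18. The pool followed for this list as well, at -0.49, 0.37, -0.16 and 0.28 against -0.90, 0.76, -0.23 and 0.37 for the lungs.

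Of the 5 heat shock genes with a spread value 3 had over 2-fold range, beside 21.7% of all genes. With flagged spots kept 6 of 12 did. The first 3, Hspa1a, Hspb1 and Hspe1, all carry the core of the heat shock element, GAANNTTC, in the 250 bases upstream of their RefSeq start. These are shown here from RefSeq sequence of GRCm38.p6. The motif reads the same on both strands, its matches are in capitals, and it occurs in 5 of the 9 heat shock genes with a sequence and in 7.73% of all 27025 genes. Hspa1a lies on the minus strand at chr17:34972157-34972406, Hspb1 on the plus strand at chr5:135887669-135887918 and Hspe1 on the plus strand at chr1:55087898-55088147.
Hspa1a: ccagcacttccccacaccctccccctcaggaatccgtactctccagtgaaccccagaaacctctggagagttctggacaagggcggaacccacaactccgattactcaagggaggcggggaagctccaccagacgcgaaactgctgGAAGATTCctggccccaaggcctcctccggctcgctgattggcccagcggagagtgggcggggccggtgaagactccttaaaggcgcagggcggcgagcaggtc
Hspb1: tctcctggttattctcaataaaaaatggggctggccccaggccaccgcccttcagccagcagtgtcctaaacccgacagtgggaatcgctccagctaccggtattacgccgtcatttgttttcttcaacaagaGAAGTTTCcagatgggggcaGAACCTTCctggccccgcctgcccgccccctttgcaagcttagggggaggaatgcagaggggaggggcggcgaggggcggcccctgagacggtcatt
Hspe1: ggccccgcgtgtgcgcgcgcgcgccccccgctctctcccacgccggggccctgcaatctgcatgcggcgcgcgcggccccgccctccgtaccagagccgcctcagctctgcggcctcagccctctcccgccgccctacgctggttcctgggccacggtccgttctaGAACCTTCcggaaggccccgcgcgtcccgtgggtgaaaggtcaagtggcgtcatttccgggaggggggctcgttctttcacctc
The core of Hspa1a and Hspe1 occurs once and that of Hspb1 on 2 sites, and a match is a description of the letters, not evidence that a factor was bound in these lungs. The core of the antioxidant response element, TGACNNNGC on either strand, was found in 3 of 16 NRF2 target genes with a sequence and in 11.5% of all genes.

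Another 2 lists were drawn up after the values were seen, so their counts beside all genes are likewise a description only. The genes named for them here were already among those picked for a large SD. Of the targets of ATF4, the factor of amino acid starvation, 10 of 12 members were higher in both lungs of the second day and 2 lower, and 8 had over 2-fold range, beside 30.7%, 15.4% and 21.7% of all genes. Their mean deviation was -0.51, 0.59, -0.60 and 0.52 in lungs 1 to 4, and -0.22, 0.15, -0.14 and 0.21 in the pool. Chac1, a glutathione-degrading enzyme, read 170, 592, 93 and 486, and Slc7a1, a cationic amino acid transporter, 51.5, 292, 71 and 248. Of 14 genes of epithelial wound response 9 had over 2-fold range, but only 6 were higher in both lungs of the second day, beside the same shares of all genes. Their mean deviation was -0.49, 0.54, -0.48 and 0.42 in the lungs, and -0.18, 0.23, -0.115 and 0.06 in the pool. Fosl1, an AP-1 subunit, was at or near the floor in lungs 1 and 3 (29 and 18) and read 221.5 and 181 in lungs 2 and 4, and Mmp10, a stromelysin, read 133, 826, 49 and 380. Gjb2, connexin 26, was high in lungs 2 and 4 on both of its probes.

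A few neutrophil genes were far higher in lung 4 than in the other lungs, but the list as a whole was divided. S100a9, a calcium-binding protein that fills neutrophil cytosol, read 528, 597.5, 318 and 5571 in lungs 1 to 4, a range of 17.6-fold, while its pool readings lay between 11.98 and 12.35. S100a8, its partner, read 83, 59.5 and 45 in lungs 1 to 3 and 816.5 on the flagged spot of lung 4. Retnlg, a resistin-like protein of granulocytes, read 147, 138, 159 and 606, and Csf3r, the G-CSF receptor, 26, 36, 27 and 134.5. Other members differed. Ngp, Ltf and Camp, secondary granule genes of maturing neutrophils, read 588.5, 105, 167.5 and 181 (Ngp), 1354, 1104.5, 1105 and 757.5 (Ltf) and 309, 185.5, 155 and 229 (Camp), each highest in lung 1. Of the 10 neutrophil genes with a spread value 8 had over 2-fold range, beside 21.7% of all genes. In these 10, 4 were highest in lung 4, 4 in lung 1 and 2 in lung 3, beside 18.8%, 27.0% and 17.9% of all genes. With flagged spots kept 6 of 12 were highest in lung 4. Mmp8, a granule collagenase, and, with its flagged spot kept, Elane, neutrophil elastase, were among those. The pool ranged by 1.29-fold for S100a9, but by 4.40-fold for Cxcr2, a chemokine receptor, and 2.48-fold for Mpo, myeloperoxidase.

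Platelet genes were mostly highest in lung 4. Of 10 members 9 had their highest value there, beside 18.8% of all genes, and 7 had over 2-fold range, beside 21.7%. Their mean deviation was -0.30, -0.02, -0.47 and 0.79 in lungs 1 to 4, and -0.24, 0.20, -0.18 and 0.22 in the pool. Pf4, platelet factor 4, read 1672, 2005, 1263 and 3317.5, Ppbp, a platelet chemokine, 238, 521.5, 267 and 1285, and Gp9, a subunit of the von Willebrand factor receptor, 176, 260, 149 and 746. The red cell list had a mean deviation of -0.12, -0.03, 0.28 and -0.13, and 5 of its 9 members were highest in lung 3, beside 17.9% of all genes. Lung 1 was lowest in 5, with 1 of them tied at the floor, beside 36.4% of all genes. The 3 globins with a spread value were lowest in lung 4, as were 17.9% of all genes, and there the pool reading of Hbb-b1 was the highest of the 4 arrays (16.44). The amount of blood left in each lung was not recorded in the sources used here, and its part was not tested.

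Endothelial genes were lowest in lung 3 and for the most part highest in lung 4. Of 9 members with a spread value 8 had their lowest value in lung 3, 6 their highest in lung 4, and 7 over 2-fold range, beside 29.9%, 18.8% and 21.7% of all genes. With flagged spots kept the counts were 18 of 19 lowest in lung 3, 14 of 19 highest in lung 4 and 17 of 19 over 2-fold. Both lungs of the second day were higher in 6 of 9 members, beside 30.7% of all genes, and in 13 of 19 with flagged spots kept. Cldn5, the tight junction protein of endothelium, read 17865, 37556.5, 10682.5 and 39405.5, Plvap, a protein of capillary diaphragms, 11563, 29001, 10678 and 28396, and Calcrl, the adrenomedullin receptor, 439.5, 1780, 349.5 and 1304. The mean deviation of the list was -0.12, 0.23, -0.69 and 0.57 in lungs 1 to 4, against -0.23, 0.13, -0.04 and 0.14 in the pool. The low value of lung 3 was thus not seen in the pool. The NK cell list was also lowest in lung 3 and highest in lung 4. Its mean deviation was -0.08, -0.003, -0.42 and 0.50 in lungs 1 to 4, and -0.08, 0.07, -0.19 and 0.20 in the pool.

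**Figure D5:**
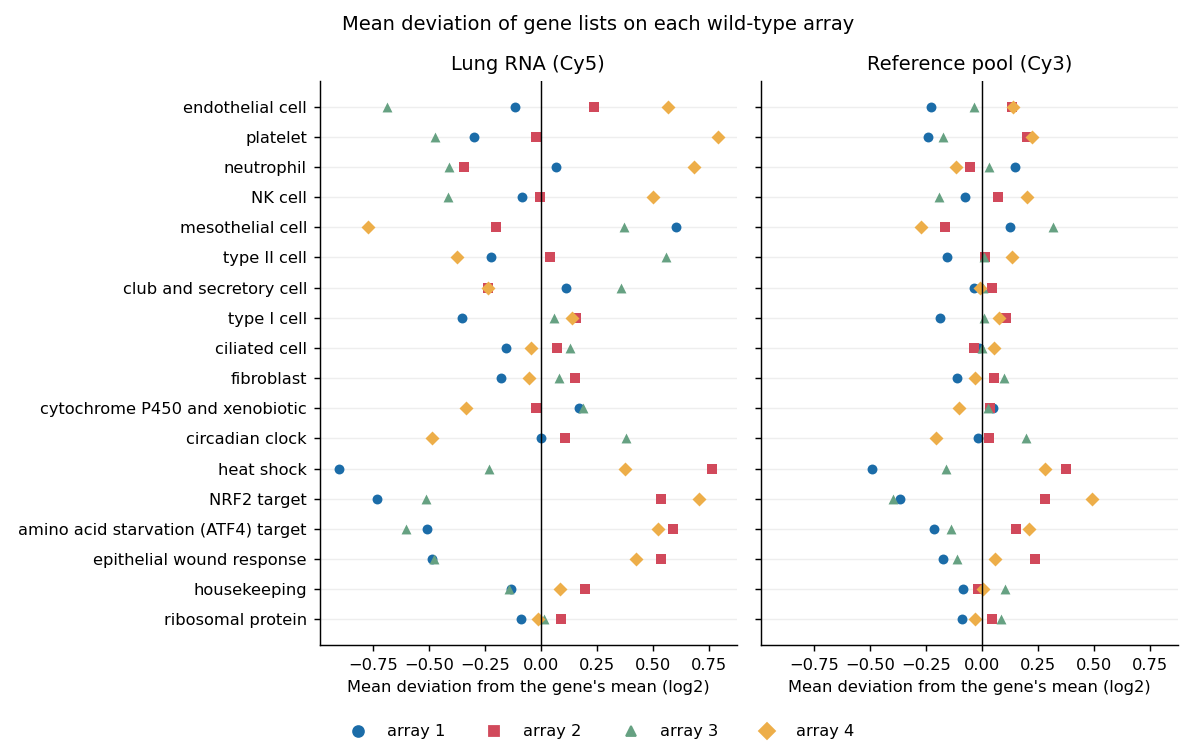
Mean deviation (log2) of the members of 18 gene lists from each gene's own mean over the 4 wild-type arrays, for lung RNA on the left and the reference pool on the right. Endothelial genes are lowest on array 3 in the lungs, the platelet and neutrophil means highest on array 4, and the stress lists higher on arrays 2 and 4 in both channels, by less in the pool.

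Type II and club cell genes ran partly the other way. Type I genes differed from these, with 5 of 8 higher in both lungs of the second day, beside 30.7% of all genes. Their mean deviation was -0.35, 0.15, 0.06 and 0.14 in lungs 1 to 4, and -0.19, 0.11, 0.01 and 0.08 in the pool. That of ciliated genes was -0.16, 0.07, 0.13 and -0.04 in the lungs. Of type II genes with a spread value 5 of 7 were highest in lung 3 and 2 in lung 2, beside 17.9% and 36.3% of all genes, with a mean deviation of -0.22, 0.04, 0.56 and -0.37, while the pool stayed within 0.29. With flagged spots kept the deviations of all 13 members were smaller, at -0.21, 0.17, 0.26 and -0.22, and 7 of 13 were highest in lung 3. Lamp3, a lysosomal membrane protein of lamellar bodies, read 660, 1476.5, 1983 and 659, Lyz1, lysozyme, 18790.5, 29491, 40037.5 and 16416, and Napsa, the protease that processes surfactant protein B, 7633.5, 9638, 12237 and 6421. Club cell genes were likewise highest in lung 3 in 5 of 7 members, beside 17.9% of all genes. Chad, a matrix protein placed in this list, read 633, 432, 1051 and 315.5. Cytochrome P450 and xenobiotic genes were lowest in lung 4 in 10 of 13 members, beside 17.9% of all genes, and Cyp1a1, induced through the aryl hydrocarbon receptor, read 393, 1037, 395 and 126.

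The mesothelium covers the lung surface. Of 5 mesothelial genes with a spread value 3 had a range of over 2-fold, 3 were lower in both lungs of the second day and 1 higher in both, beside 21.7%, 15.4% and 30.7% of all genes. The range of the list's mean deviation was 1.38, and 0.77 over 7 genes with flagged spots kept. Upk3b, a uroplakin of mesothelium, read 470.5, 177, 492 and 46, and Msln, mesothelin, 5093, 2769, 3805.5 and 1694.5. Both were lowest in lung 4 and next lowest in lung 2, and the pool moved with them for Upk3b (8.55, 7.69, 8.85 and 7.62). Of 14 clock genes 7 had over 2-fold range and 8 were lowest in lung 4, beside 21.7% and 17.9% of all genes. The range of the list's mean deviation was 0.86, and 0.56 over 18 genes with flagged spots kept. Per3, a period gene, read 265, 347, 385 and 112, and Nfil3, a clock-controlled repressor, 1313, 393, 626 and 271.5, with a pool that moved alike (log2 signals of 10.13, 8.32, 8.96 and 8.14). Nr1d1, REV-ERB alpha, read 899.5, 1297 and 5190 in lungs 1, 3 and 4, and its pool readings were also highest on the arrays of the second day (11.72 and 11.99, against 10.71 and 10.41). The time of day of tissue collection is not given in the sources used here.

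The most level bright genes were picked for having the smallest SD. Their small values follow from that choice and give no scale for the ranges above. The median SD over all probes with a spread value was 0.31. Among probes above the 75th percentile Ptprf, a receptor phosphatase, had the smallest SD (0.01), with log2 signals of 14.20, 14.22, 14.22 and 14.19. C1qtnf6, Mxra8, Hist1h2ai, a histone gene, Nr3c1, the glucocorticoid receptor, and the ribosomal protein genes Rps20 and Rpl8 followed with an SD of 0.02 to 0.03. None of the housekeeping and ribosomal protein genes with a spread value, 12 and 11 in number, had a range of over 2-fold, beside 21.7% of all genes.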

How the data were processed

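Per the labels and the study's methods, total RNA of each whole lung was labeled with Cy5 and the pool with Cy3, both hybridised to Agilent 4x44K mouse arrays without a dye swap. The scanner intensities, a median per spot and per local background, were deposited by the authors as Feature Extraction output (version 10.10.1.1 in the file headers, 11.0.1.1 in the submitters' processing notes). The log2 ratios that the authors deposited came from GeneSpring GX, and were used as an alternative only.

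Control spots and spots with an outlier flag were dropped, the net Cy5 signal was averaged per probe and ranked within each array, and each gene was given by its brightest probe. Gene symbols were joined to 33870 probes by the series' annotation and to 933 by RefSeq, which left 6371 unnamed. For the spread, arrays were quantile scaled, floored at the 5th percentile of signals well above background and taken to log2, for probes well above background on at least 2 arrays. Named genes were the 30 brightest, the 20 of largest SD, the 10 of largest SD above the 90th percentile, the 10 of smallest SD above the 75th, and defining, highest and lowest members of the lists, others being picked after their values were seen. Python 3.11.15, R 4.3.3 and limma 3.58.1 (normexp) were used, and the code was tested on simulated data. No statistical test of a difference between groups was made, because there is 1 group, and precision is limited by there being 4 arrays. A gap rule with a chance rate, given below, was used to flag single lungs. The members and lists were chosen with earlier results of these data known. Alternatives were other background and scaling choices, flagged spots kept, the ratio to the pool, pairs of one scan day, and leaving out each lung. A few genes are not reported here.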

Additional observations from a re-analysis of the deposited data

Results flagged for a closer look

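In 14 of 252 values checked, 1 lung stood far from the other 3, as the gap to its nearest neighbour against the whole range shows. Chance alone gives about 1 in 20, and 14 of 252 is near that rate. Lung 1 stood apart in 6 of them, lung 2 in 2, and lungs 3 and 4 in 3 each.

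In lung 1, Gpd2 was high (log2 signal 12.99), with the pool on that array equally high. Muc5ac, the goblet cell mucin (9.99), Cyp1b1, a cytochrome P450 (7.41), and Olfr835, an olfactory receptor (7.18), were also high there. For Muc5ac and Cyp1b1 the pool ranged by 1.92-fold and 3.16-fold over the arrays, beside 2.01-fold and 2.55-fold for the lungs. Their ratio to the pool, taken with the offset of 50, had an SD of 0.15 and 0.12. For Olfr835 the pool read 5.61 on that array and 4.87 on the others. The thyroid and parathyroid list had a mean deviation of 0.38 in lung 1, and its pool deviation on that array was 0.36. In lung 4 the neutrophil genes Retnlg (9.32) and Csf3r (7.22) were high and Hba-a1, alpha globin, was low (15.69). In lung 3 Rif1, a DNA repair factor, was low (6.34), while its second probe ranged by 0.68. In lung 2 Shank1, a synaptic scaffold, was high (7.84), and the pool was high on that array too (7.08, against 4.91 to 4.93 on the others).

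Another 4 values stood out only because the other 3 lungs were at the floor of 4.76: Wt1 in lung 1 (5.01), Spna1 (5.19) and Umod (4.89) in lung 3, and Trat1 in lung 2 (4.78).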

How the results depend on the processing

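No pairing with the transgenic arrays was made, because only the wild-type group is described and no test between groups is made. Spread within pairs of one scan day is given below. The brightness order hardly depended on background handling, but the 100 brightest genes shared by all lungs numbered 64 in place of 36 with flagged spots kept. Of 263 gene percentiles checked 97 counted as moved with flagged spots kept, and the largest shift was 15.5 points. Of 54 list medians 16 did, with a largest shift of 3.57 points. The share of net signal in the 100 brightest probes was 18.8% without background subtraction, 18.9% with normexp, 18.9% with the processed signal and 19.0% with flagged spots kept, against 19.9%. The spread depended more on the processing. The median SD of 0.309 became 0.224 without background subtraction, 0.230 with normexp, 0.266 without a filter on dim probes, 0.334 without a floor, 0.165 for the ratio to the pool, 0.252 within pairs of one scan day and 0.247 for the authors' log2 ratio, an alternative chosen after seeing the data. The 6870 probes over 2-fold became 2920 without background subtraction, 3092 with normexp, 704 for the ratio to the pool, 2620 within scan-day pairs and, also chosen after seeing the data, 4536 when the pool had to stay within 2-fold. The pool's median SD of 0.223 became 0.189, 0.173, 0.190 and 0.191 without background subtraction, with normexp, without the filter and within scan-day pairs. The ratio to the pool was taken after normexp and a loess fit, so its shift is not that of the pool alone. The cause of these shifts was not tested.

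Leaving out each lung in turn, the median SD was 0.267 (without lung 1) to 0.323, the pool's 0.176 (without lung 1) to 0.225, and the lowest rank correlation 0.966 to 0.976. The probes over 2-fold numbered 3126 without lung 1, 4294 without lung 2 and up to 5864 without lung 4. The order of lungs for single genes was not recomputed under each alternative.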
